A study of Mus musculus with 24 samples.

Results

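p53, encoded by Trp53, and 9 genes that it is known to activate were followed through mouse myoblasts in which a subunit of the SWI/SNF chromatin remodelling complex had been knocked down. The genes were Trp53, Cdkn1a, Mdm2, Ccng1, Trp53inp1, Sesn1, Bbc3, Bax, Phlda3 and Zmat3, taken by name from the 55291 gene symbols of the count table. No threshold on a measured value was used to pick them, but earlier results of these data were known when they were chosen. All 10 were counted in all 24 libraries, and all 10 were among the 16524 genes with enough counts to be tested over the 24 libraries together.

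The cells were C2C12 myoblasts, an established mouse muscle line, in 4 populations: a scrambled shRNA control (scr) and knockdowns (KD) of Baf180 (gene Pbrm1, a subunit of the PBAF form of the complex), Baf250a (gene Arid1a, a subunit of the cBAF form) and Brd9 (a subunit of the ncBAF form). Each population was grown without added metal (NT), with 100 µM CuSO4 (Cu) or with 50 µM ZnSO4 (Zn) for 48 h, which gives 12 conditions with 2 independent biological replicates each. All 4 populations, scr included, carried lentiviral shRNA and had been selected with puromycin. The study lists 2 shRNAs for each target, and the labels do not say which a library carries. The effect of a knockdown and that of the selected population that carries it cannot be told apart. The sample labels name primary myoblasts transfected with Lipofectamine, whereas the study's methods describe C2C12 cells with lentiviral shRNA, and the methods are followed here.

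p53 is a transcription factor that is held at a low level in unstressed cells because MDM2, itself a p53 target, marks it for degradation. DNA damage and other stresses stabilise the protein, so its activity is read in the RNA of its targets rather than in Trp53 RNA. The targets divide by role: feedback on p53 itself (Mdm2, Ccng1, Trp53inp1), arrest of the cell cycle (Cdkn1a, which encodes the CDK inhibitor p21), control of oxidative stress and growth signalling (Sesn1), cell death (Bbc3, which encodes PUMA, with Bax and Phlda3) and RNA binding (Zmat3). In muscle precursors p21 also has a part in leaving the cell cycle before fusion into myotubes. RNA levels alone were measured here, not p53 protein or its binding.

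Total counts per library ran from 12719173 to 75179394, except for replicate 2 of the Baf250a KD with Zn, which had 495778. In that library the members had between 6 counts (Bbc3) and 238 (Cdkn1a), so some results that use it are also given without it, where stated. The other Baf250a KD results with Zn or over 3 treatments include it. The targeted genes were lower in their own KD than in scr with no overlap over 6 libraries each: Pbrm1 at 42.2 to 75.7 CPM (counts scaled to a common library size) against 99.9 to 227, Arid1a at 92 to 144 against 266 to 308, and Brd9 at 13.8 to 17.9 against 27.2 to 32.4. The myoblast markers fixed for the check (Myod1, Myf5, Pax7, Des, Cdh15, Chrna1) summed to 2780 to 3920 CPM in scr, 1730 to 1940 in Baf180 KD, 1350 to 1510 in Baf250a KD and 1880 to 2330 in Brd9 KD, although Pax7 itself reached at most 5.41 CPM. The fibroblast markers summed to 38.3 to 51.7 CPM in scr, 359 to 434 in Baf180 KD, 2050 to 2660 in Baf250a KD and 61.4 to 84.7 in Brd9 KD. Most of the Baf250a KD sum was Col1a1, at 1990 to 2590 CPM. Pdgfra was higher there too, at 53.6 to 66.1 CPM against 3.78 to 5.54 in scr, as was Dcn, at 12.4 to 26.2 against 1.29 to 2.82, while Thy1, Dpt and Lum stayed under 1 CPM in every library. The 3 fibroblast markers that could be tested were higher in each KD over 3 treatments. Macrophage and endothelial markers summed to at most 6.22 CPM. In bulk RNA, a change in the number of cells of a kind and a change in RNA per cell cannot be told apart.

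A p53 response element is a pair of decamers that lie next to each other or a short way apart. The decamer pattern used here was 3 bases A or G, then C, 2 bases A or T and G, then 3 bases C or T. Mismatches were allowed only outside the core that runs from the C to the G. To show how far the start sites of the members carry this sequence, windows from 250 bases before to 50 bases after RefSeq start sites (GRCm38.p6) were searched on both strands, allowing at most 3 mismatches and a spacer of at most 1 base. Of the 10 members, 8 had a window; Trp53inp1 and Zmat3 are named only. Such an element lay in a window of 4 members, Cdkn1a, Bax, Trp53 and Bbc3, against 1.06% of all 32851 windows, and an exact single decamer in windows of 6 members, against 8.36% of all windows. The elements of Cdkn1a and Bax, which come nearest to the pattern, and that of Trp53 itself are printed 5′ to 3′ on the strand of the gene, with the element in capitals and its neighbouring bases in lower case.
Cdkn1a (chr17:29090888-29090974, plus strand): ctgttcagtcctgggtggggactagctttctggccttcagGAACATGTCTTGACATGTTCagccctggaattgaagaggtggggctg
Bax (chr7:45467039-45467139, minus strand): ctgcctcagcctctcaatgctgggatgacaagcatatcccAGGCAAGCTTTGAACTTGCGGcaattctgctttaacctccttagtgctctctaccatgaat
Trp53 (chr11:69580244-69580343, plus strand): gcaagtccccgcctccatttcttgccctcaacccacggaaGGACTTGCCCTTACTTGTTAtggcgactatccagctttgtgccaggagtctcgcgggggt
The Cdkn1a element had 1 mismatch to the 20-base pattern and lay 51 to 32 bases before the start site of its window. The other Cdkn1a window (chr17:29093519-29093818) held no such element and no exact single decamer. The Bax element had 2 mismatches and a spacer of 1 base, and the Trp53 element had 3 mismatches. A match in the letters is a description of the sequence, not a bound site, and elements farther away, such as those in introns, were not searched.

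Levels between genes can be compared only per length. In untreated scr cells the mean level, in CPM per kilobase of exon, was highest for Cdkn1a (101), Ccng1 (83.8), Phlda3 (78.0) and Bax (72.9), followed by Trp53 (52.8) and Mdm2 (30.5). Zmat3 (17.1), Bbc3 (6.58), Sesn1 (4.22) and Trp53inp1 (3.12) were lowest. Their exons overlap few other genes: in the GENCODE annotation of GRCm38, Bax (chr7:45461697-45466898) shares 192 exon bases with the predicted gene Gm45808 on its own strand, and Cdkn1a (chr17:29090976-29100727) shares 273 with a gene on the other strand, which strand-specific counting separates.

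The first comparison asked whether the p53 programme differed between each KD and scr, with the 3 treatments pooled (6 libraries a line, treatment as a term in the fit). Baf250a KD had the most p53 targets at a higher level: Cdkn1a, Trp53inp1, Sesn1, Phlda3 and Zmat3 were higher and Mdm2 was lower. In Baf180 KD, Sesn1 and Phlda3 were higher while Mdm2, Ccng1, Bbc3 and Zmat3 were lower. In Brd9 KD, Cdkn1a, Mdm2 and Zmat3 were lower and no member was called higher. In this pooled fit Mdm2, the negative regulator of p53, was the only member called lower in all 3 KDs, and Trp53 was called in none.

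These counts are read against the share of all tested genes called the same way by edgeR's quasi-likelihood test at a Benjamini-Hochberg adjusted p under 0.05. In Baf250a KD 5 of 10 members were higher and 1 lower, where 27.1% of all genes were higher and 25.4% lower. In Baf180 KD 2 were higher and 4 lower, where 22.3% of all genes were higher and 19.5% lower. In Brd9 KD none was higher and 3 were lower, where 16.7% of all genes were higher and 16.6% lower; in that comparison 6 members had an unadjusted p under 0.05. The median log2 fold change of the 10 members was 0.21, -0.13 and -0.17 for Baf250a, Baf180 and Brd9 KD, beside -0.004, -0.024 and 0 over all genes. Without the shallow library the Baf250a KD counts were again 5 and 1.

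**Figure D1:**
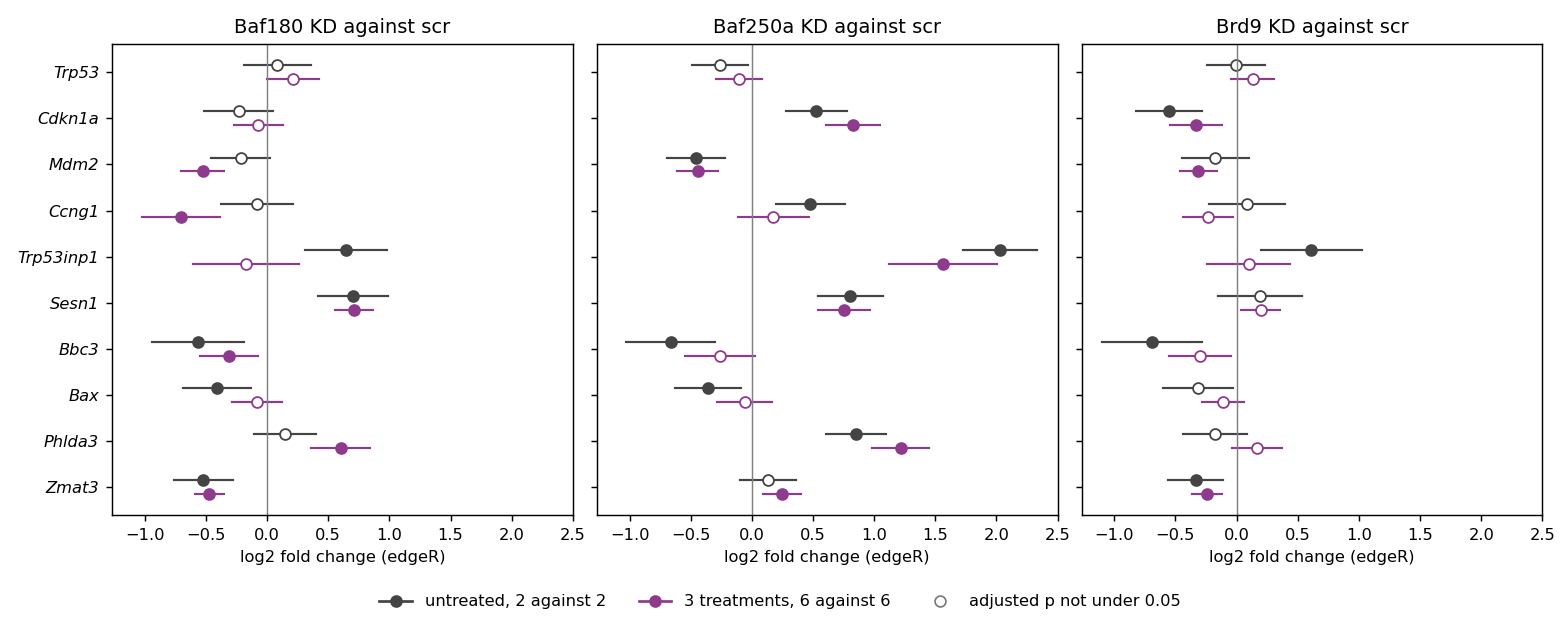
Log2 fold change (horizontal axis) of each of the 10 members (vertical axis) in each KD against scr, one panel a KD, without metal (grey, 2 libraries a line) and over 3 treatments (purple, 6 libraries a line). Points are edgeR estimates, bars their 95% confidence intervals, and filled points are called at adjusted p under 0.05. Over 3 treatments Trp53inp1 and Phlda3 in Baf250a KD lie farthest to the right, at 1.56 and 1.22, and Mdm2 lies to the left of 0 in all 3 KDs.

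Trp53 RNA itself changed little. Its level ran from 182 to 251 CPM in scr (median 198), from 197 to 294 in Baf180 KD (median 248), from 172 to 207 in Baf250a KD (median 193) and from 194 to 270 in Brd9 KD (median 226). The lines overlap. The log2 fold change over 3 treatments was 0.21 in Baf180 KD (95% confidence interval -0.004 to 0.42), -0.11 in Baf250a KD (-0.30 to 0.086) and 0.13 in Brd9 KD (-0.048 to 0.31), with adjusted p of 0.109, 0.348 and 0.258. A correction for gene GC content and length, described with the metal responses, narrowed the error and put Trp53 lower in Baf250a KD by a log2 fold change of -0.20 (adjusted p = 0.0167).

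Cdkn1a, the gene of the arrest protein p21, separated Baf250a KD from the other lines. Its CPM in replicates 1 and 2 of Baf250a KD were 543 and 493 without metal, 618 and 611 with Cu, and 522 and 463 with Zn. In scr they were 320 and 398 without metal, 388 and 305 with Cu, and 240 and 228 with Zn. The lowest Baf250a KD library (463) lay above the highest scr library (398), and the line difference over 3 treatments was 1.78-fold (log2 0.83, SE 0.10, edgeR adjusted p = 1.12e-05).

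In Brd9 KD Cdkn1a went the other way. Its CPM were 257 and 225 without metal, 275 and 262 with Cu, and 261 and 204 with Zn. These overlap with the scr libraries treated with Zn but not with the other scr libraries. The level over 3 treatments was 0.795 of scr (log2 -0.33, SE 0.098, edgeR adjusted p = 0.0186), a call that was lost without replicate 1 of scr with Cu (adjusted p = 0.0510). In Baf180 KD the 6 libraries ran from 242 to 338 CPM, inside the range of scr, and the log2 fold change was -0.072 (95% confidence interval -0.27 to 0.13). The order of the line medians was therefore Baf250a KD (533), scr (313), Baf180 KD (300) and Brd9 KD (259), in which scr and Baf180 KD did not differ beyond their spread.

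Mdm2, which encodes the ubiquitin ligase that degrades p53, had CPM of 167 and 144 without metal, 185 and 190 with Cu, and 160 and 155 with Zn in scr. In Baf180 KD they were 134 and 130 without metal, 118 and 119 with Cu, and 102 and 103 with Zn. Every Baf180 KD library was below every scr library, and the level was 0.694 of scr (log2 -0.53, SE 0.081, edgeR adjusted p = 0.000157). In Baf250a KD they were 115 and 111, 146 and 146, and 115 and 85.6 in the same order. The Baf250a KD libraries with Cu just reached the lowest scr library, and the level was 0.735 of scr (log2 -0.44, SE 0.076, edgeR adjusted p = 0.000233). Brd9 KD libraries ran from 127 to 144 CPM and met but did not cross the scr range, with untreated replicate 2 of both lines at 144, and the level was 0.805 of scr (log2 -0.31, SE 0.070, edgeR adjusted p = 0.00354). Mdm2 and Cdkn1a, both classical p53 targets, thus moved in opposite directions in Baf250a KD and in the same direction in Brd9 KD.

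Ccng1 encodes cyclin G1, which recruits a phosphatase to MDM2, and Trp53inp1 encodes a nuclear protein that promotes p53 activity. Trp53inp1 had the largest difference among the members. Its CPM were 81.5 and 82.3 without metal, 90.7 and 86.7 with Cu, and 44.2 and 44.7 with Zn in Baf250a KD, against 23.3 and 17.2, 20.7 and 28.2, and 30.7 and 30.1 in scr. All Baf250a KD libraries were above all scr libraries, most widely without metal, and the line difference over 3 treatments was 2.96-fold (log2 1.56, SE 0.21, edgeR adjusted p = 2.17e-05). In Baf180 KD and Brd9 KD the medians were 20.9 and 25.8 CPM, beside 25.7 in scr. Ccng1 was lower in Baf180 KD, at 172 to 293 CPM against 252 to 389 in scr (0.615 of scr, log2 -0.70, SE 0.15, edgeR adjusted p = 0.00177). That range includes the untreated libraries, 293 and 256 CPM, which overlap with scr at 336 and 252, while the 4 metal-treated Baf180 KD libraries lay between 172 and 203.

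Sesn1 encodes sestrin 1, which restrains mTORC1 signalling and helps limit oxidative damage. Its CPM in replicates 1 and 2 were 28.5 and 25.6 without metal, 24.9 and 20.5 with Cu, and 27.8 and 28.5 with Zn in Baf180 KD, and all scr libraries lay between 14.5 and 17.1. The groups did not overlap (1.63-fold, log2 0.71, SE 0.071, edgeR adjusted p = 3.76e-06). In Baf250a KD Sesn1 was 1.69-fold higher (log2 0.75, SE 0.097, edgeR adjusted p = 1.87e-05), and the only library inside the scr range was the shallow one, with 15.6 CPM from 8 counts. In Brd9 KD the values of 15.3 to 21.2 CPM did not pass the test (log2 0.20, adjusted p = 0.0558).

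The members tied to cell death did not move as a group. Phlda3, whose product blocks membrane recruitment of the survival kinase AKT, ran from 68.5 to 133 CPM in scr and from 208 to 249 in Baf250a KD, with no overlap (2.32-fold, log2 1.22, SE 0.11, edgeR adjusted p = 4.75e-07). It was 1.52-fold higher in Baf180 KD (129 to 184 CPM, log2 0.60, SE 0.11, edgeR adjusted p = 0.000727). Bbc3, the BH3-only activator PUMA, was low in all lines, with medians of 12 CPM in scr, 9.38 in Baf180 KD, 10.7 in Baf250a KD and 10.1 in Brd9 KD. It was called lower in Baf180 KD alone (log2 -0.31, SE 0.11, edgeR adjusted p = 0.0374), and that call was lost when any of 8 of the 12 libraries was left out. Bax, which permeabilises the outer mitochondrial membrane, had medians between 89.8 and 109 CPM in the 4 lines and was called in no KD over 3 treatments in the fit without correction.

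Zmat3 encodes a zinc finger protein that binds RNA. Its 6 libraries ran from 119 to 155 CPM in Baf180 KD, from 148 to 173 in Brd9 KD and from 177 to 244 in Baf250a KD, against 156 to 210 in scr. Baf180 KD lay wholly below scr (0.721 of scr, log2 -0.47, SE 0.056, edgeR adjusted p = 1.75e-05), and Brd9 KD was 0.845 of scr (log2 -0.24, SE 0.056, edgeR adjusted p = 0.00426). The small rise in Baf250a KD (1.19-fold, adjusted p = 0.00938) was not seen after correction for GC content and length (log2 -0.047, adjusted p = 0.587).

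**Figure D2:**
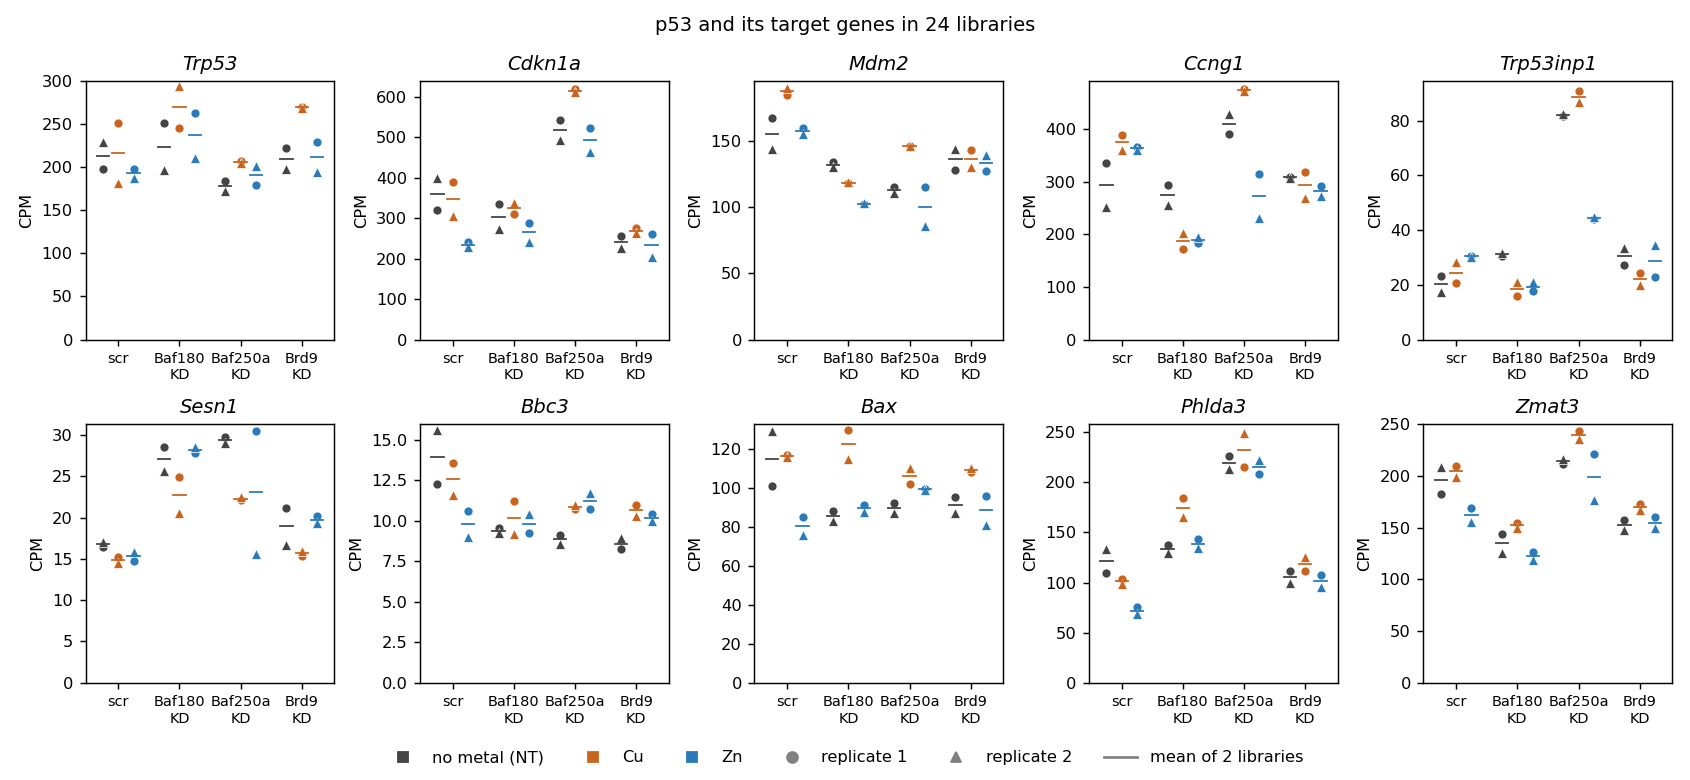
CPM of each of the 10 members (vertical axis, one panel a gene, each from 0) in all 24 libraries, grouped by line along the horizontal axis. Colours mark the treatments, circles replicate 1, triangles replicate 2, and short lines the mean of 2 libraries. Cdkn1a, Phlda3 and Trp53inp1 in the 6 Baf250a KD libraries lie above all scr libraries, and Mdm2 in Baf180 KD lies below them.

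Without added metal, 2 libraries a line were compared. In Baf250a KD 5 members were higher and 3 lower, where 28.9% of all genes were higher and 28.9% lower. Trp53inp1 was 4.07-fold higher (log2 2.03, SE 0.14, edgeR adjusted p = 8.67e-08), Phlda3 1.81-fold, Sesn1 1.75-fold and Cdkn1a 1.44-fold, and Ccng1 was higher by a log2 fold change of 0.48. Mdm2 was at 0.729 of scr, and Bbc3 and Bax were lower by log2 fold changes of -0.66 and -0.36. In Baf180 KD 2 members, Trp53inp1 and Sesn1, were higher and 3, Bbc3, Bax and Zmat3, were lower, where 21.7% of all genes were higher and 19.3% lower. In Brd9 KD Trp53inp1 was higher and Cdkn1a, Bbc3 and Zmat3 were lower, where 15.1% of all genes were higher and 14.1% lower. Cdkn1a in untreated Brd9 KD was at 0.680 of scr (log2 -0.56, SE 0.12, edgeR adjusted p = 0.0116). Leaving out 1 library moved these counts of called members: to 1 or 2 in Baf180 KD without either of its own libraries, to 4 in Baf250a KD without its replicate 2, and to between 0 and 7 in Brd9 KD. Bbc3 was lower in all 3 untreated KDs and Trp53inp1 was higher in all 3. After correction for GC content and length the Trp53inp1 difference was -0.030 in Baf180 KD and -0.13 in Brd9 KD and remained 1.24 in Baf250a KD. Bbc3 was then called in none of the 3, at -0.25, -0.16 and -0.14 in Baf180, Baf250a and Brd9 KD (adjusted p = 0.197, 0.344 and 0.545).

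The wider pathway was read from lists of genes. Of 17 regulators of p53, 14 were tested in each KD over 3 treatments, and 1 was higher and 3 were lower in Baf180 KD, 4 higher and 4 lower in Baf250a KD, and 2 higher and 3 lower in Brd9 KD. For all lists over 3 treatments the shares of all genes to set beside the counts are 22.3% higher and 19.5% lower in Baf180 KD, 27.1% and 25.4% in Baf250a KD, and 16.7% and 16.6% in Brd9 KD, and several counts of the regulators lie near them. Hipk2, a kinase that phosphorylates p53 in the response to damage, was lower in all 3 KDs. It ran from 307 to 408 CPM in scr, 199 to 265 in Baf180 KD, 106 to 141 in Baf250a KD and 229 to 254 in Brd9 KD, with no overlap (log2 -0.60, -1.47 and -0.51, edgeR adjusted p = 0.000123, 3.48e-09 and 5.27e-05). Chek2, a checkpoint kinase, was also lower in all 3 (log2 -0.55, -0.58 and -0.29). Cop1, a ubiquitin ligase for p53, was higher in Baf250a KD (log2 0.59, SE 0.096, edgeR adjusted p = 0.000139), and Rchy1, another p53 ligase, was lower in Brd9 KD (log2 -0.44, SE 0.059, edgeR adjusted p = 6.52e-05). Cdkn2a, whose ARF product inhibits MDM2, had 0 counts in all 24 libraries. With 3 counts taken as the limit of detection, that limit is 0.0053 CPM over their 565870407 counts together. In single libraries it ran from 0.0399 to 6.05 CPM.

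Of 36 other p53 targets, all tested over 3 treatments, 9 were higher and 16 lower in Baf180 KD, 12 higher and 11 lower in Baf250a KD, and 9 higher and 10 lower in Brd9 KD, beside 22.3% and 19.5%, 27.1% and 25.4%, and 16.7% and 16.6% of all genes. Fas, a death receptor, was at 13.6 to 17.2 CPM in Baf250a KD against 0.756 to 1.72 in scr (log2 3.83, SE 0.17, edgeR adjusted p = 2.43e-10). Perp, a membrane protein of cell junctions, rose in all 3 KDs but from 0.161 CPM in scr to means of only 1.62, 3.79 and 2.73 in Baf180, Baf250a and Brd9 KD. Its Baf250a KD libraries ran from 0 to 4.84 CPM, with a median of 4.51. Eda2r, a receptor of the TNF family, was lower in Baf180 KD and Brd9 KD (log2 -1.53 and -0.997), as was Plk2, a polo-like kinase (log2 -0.87 and -0.84). In Baf250a KD all libraries also lay below scr for Eda2r (25.3 to 50.8 against 80.5 to 101 CPM) and Plk2 (212 to 275 against 288 to 469). Plk3 was lower in Baf250a KD (log2 -1.80, SE 0.13, edgeR adjusted p = 5.83e-08). Its Baf180 KD libraries lay below scr as well (36 to 53 against 56 to 109 CPM).

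p21 keeps the DREAM complex on the promoters of cell division genes, and that complex represses them. Of 12 such genes, none was higher and 11 were lower in Baf250a KD over 3 treatments, 7 were higher and none lower in Brd9 KD, and 2 were higher and 2 lower in Baf180 KD. Of all genes 27.1% were higher and 25.4% lower in Baf250a KD, 16.7% and 16.6% in Brd9 KD, and 22.3% and 19.5% in Baf180 KD. The list's median log2 fold changes were -0.52, 0.21 and -0.077. The counts in Baf250a KD were the same without the shallow library, and after correction for GC content and length all 12 were lower in Baf250a KD, while 8 were higher and 1 lower in Brd9 KD. Cdkn1a itself was higher in Baf250a KD and lower in Brd9 KD. The paper reports reduced proliferation of both lines without added metal. Whether p21 had a part in the levels of these genes was not tested.

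Cdk1, the mitotic kinase, had CPM of 81.9 and 90.0 without metal, 81.8 and 96.7 with Cu, and 95.8 and 117 with Zn in Baf250a KD, against 162 to 203 in scr. No Baf250a KD library reached the lowest scr library (log2 -1.01, SE 0.082, edgeR adjusted p = 1.72e-07). Plk1 (log2 -0.92, SE 0.12, edgeR adjusted p = 2.2e-05) and Birc5, which encodes survivin (log2 -0.66, SE 0.097, edgeR adjusted p = 6.24e-05), were lower too, and E2f1 was the one not called (log2 -0.16, adjusted p = 0.257). In Brd9 KD, Mybl2 (log2 0.44, SE 0.067, edgeR adjusted p = 0.000213), Ccnb1 (0.31) and Cdc25c (0.28) were higher.

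**Figure D3:**
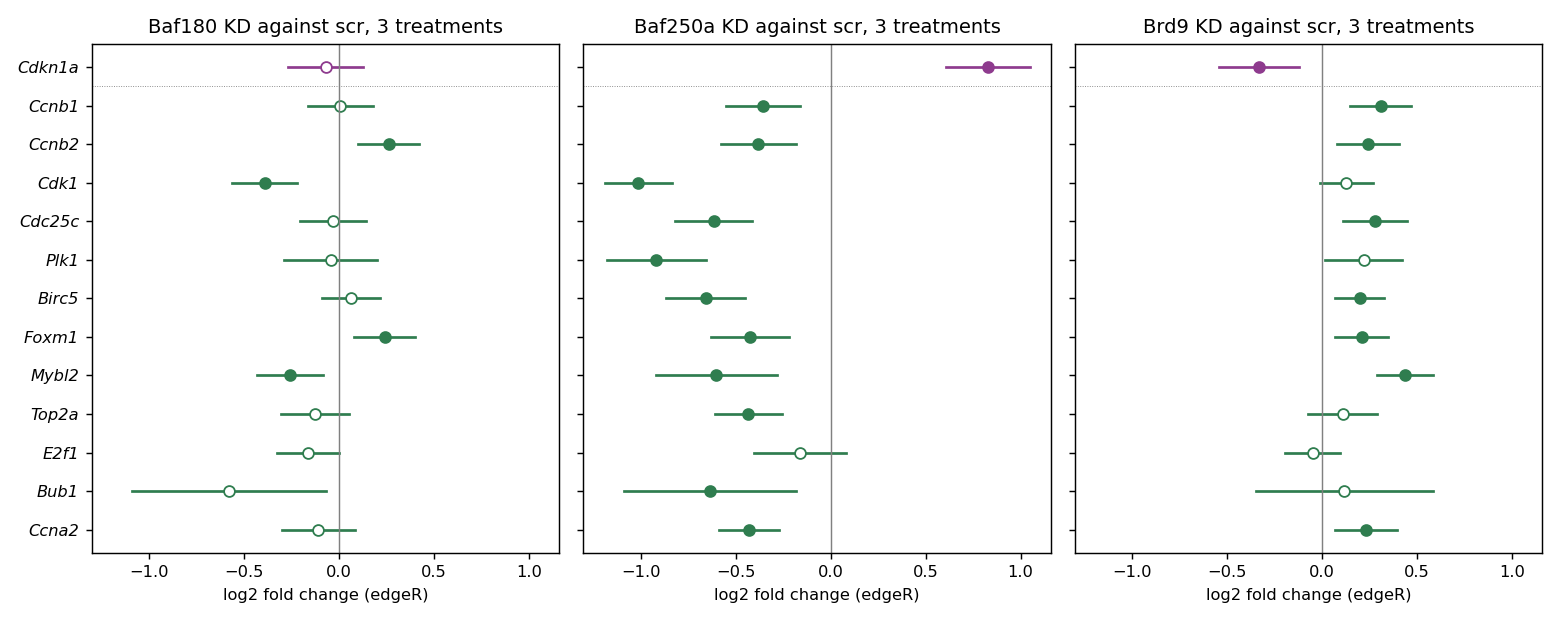
Log2 fold change (horizontal axis) of Cdkn1a (top, purple) and 12 cell division genes repressed through p21 and DREAM (green) in each KD against scr over 3 treatments, one panel a KD. Points are edgeR estimates, bars their 95% confidence intervals, and filled points are called at adjusted p under 0.05. The Baf250a KD values of the 12 genes all lie below 0, with Cdk1 at -1.01.

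Among 12 genes of the BCL2 family and apoptosis effectors, of which 11 could be tested in Baf250a KD and Brd9 KD, 4 were higher and 2 lower in Baf180 KD, 6 higher and 2 lower in Baf250a KD, and 3 higher and 2 lower in Brd9 KD. The shares of all genes were 22.3% and 19.5%, 27.1% and 25.4%, and 16.7% and 16.6%, and several of these counts lie near them. The survival gene Bcl2l1, which encodes BCL-XL, was higher in all 3 KDs (log2 0.71, 0.71 and 0.31). The BH3-only gene Bmf was higher in Baf250a KD, at 5.83 to 12.3 CPM against 1.80 to 3.62 (log2 2.05, SE 0.15, edgeR adjusted p = 4.88e-08). Of the other CDK inhibitors, Cdkn1c (p57) was higher in Baf180 KD and Baf250a KD but at means of only 1.01 and 1.27 CPM, and Cdkn2c was higher in Baf180 KD (log2 0.31, adjusted p = 0.0108). Cdkn1b, the close relative of Cdkn1a, was called in no KD.

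Markers of muscle differentiation, during which p21 rises, summed to 71.4 to 104 CPM in scr, 64.3 to 85.6 in Baf250a KD, 35.1 to 45.3 in Brd9 KD and 125 to 175 in Baf180 KD. Of the 8, of which 7 could be tested in Brd9 KD, 6 were higher and none lower in Baf180 KD, where Myog (log2 2.52, SE 0.14, edgeR adjusted p = 1.46e-08) and Myh3 (log2 2.51) led. Baf250a KD had 4 higher and 3 lower, and Brd9 KD 1 higher and 5 lower, with Acta1, Ckm and Myh3 lower (log2 -1.42, -1.90 and -1.17). Baf180 KD had the highest differentiation sum and Baf250a KD the highest Cdkn1a. Acta1 alone made up 46.7 to 75.3 CPM in scr and 27.6 to 36 in Baf250a KD, where the mean of Myog was 10.6 CPM against 5.19 in scr. The part of differentiation markers, of Col1a1 or of cell number in the Cdkn1a differences was not tested.

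The second comparison asked how the p53 programme responded to Cu and Zn within each line (2 libraries with metal against 2 without, in a fit of the 6 libraries of the line). Of the 80 tests of a member, 10 were called. These calls are read below beside the share of all genes called in the same comparison. For Zn in scr, Cu in Baf180 KD and Zn in Baf250a KD, 10.5%, 5.46% and 8.85% of all genes were higher. In the same order, 7.13%, 8.3% and 7.02% were lower.

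In scr none of the members was called with Cu, where 0.0333% of all genes were called either way, although 3 had an unadjusted p under 0.05; DESeq2 called none either. With Zn none was higher and 3 were lower, where 10.5% of all genes were higher and 7.13% lower. They were Cdkn1a, at 240 and 228 CPM against 320 and 398 (0.693 of untreated, log2 -0.53, SE 0.13, edgeR adjusted p = 0.0354), Phlda3, at 75.6 and 68.5 against 110 and 133 (0.629, log2 -0.67, adjusted p = 0.0275), and Bax, at 85.1 and 75.6 against 101 and 129 (log2 -0.43, adjusted p = 0.0489). None of the 3 was called without replicate 2 of untreated scr or without either Zn library. Leaving out replicate 2 of untreated scr or replicate 2 of Zn cut the genes called in the whole comparison from 2645 to 8 or 5.

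In Baf180 KD with Cu 2 members were higher and 2 lower, where 5.46% of all genes were higher and 8.3% lower. Bax rose from 88.4 and 82.9 to 130 and 115 CPM (1.40-fold, log2 0.48, SE 0.086, edgeR adjusted p = 0.0112) and Phlda3 from 137 and 129 to 184 and 165 (1.28-fold, adjusted p = 0.0231). Ccng1 fell from 293 and 256 to 172 and 203 CPM (0.668 of untreated, adjusted p = 0.0095) and Trp53inp1 from 30.5 and 31.7 to 15.8 and 21 (0.579, adjusted p = 0.0121). No member was called without replicate 1 of Cu or replicate 2 of the untreated cells. With Zn no member was called in Baf180 KD, where 0.0197% of all genes were called either way; 3 had an unadjusted p under 0.05, and DESeq2 called 3. With the replicate number as a block 3 members and 657 genes were called, against 3 genes without it. The values for Ccng1 (184 and 194 CPM, log2 -0.56, adjusted p = 0.154) and Trp53inp1 (17.6 and 20.9 CPM, log2 -0.70, adjusted p = 0.244) were close to those with Cu.

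In Baf250a KD with Cu 1 member was higher and none lower, where 0.626% of all genes were higher and 0.646% lower: Mdm2 rose from 115 and 111 to 146 and 146 CPM (1.29-fold, log2 0.37, SE 0.088, edgeR adjusted p = 0.0282), a call lost without any 1 of the 4 libraries compared and in DESeq2. With Zn none was higher and 2 were lower, where 8.85% of all genes were higher and 7.02% lower. Trp53inp1 fell from 81.5 and 82.3 to 44.2 and 44.7 CPM (0.540 of untreated, log2 -0.89, SE 0.11, edgeR adjusted p = 9.81e-06), and Ccng1 from 390 and 428 to 314 and 231 (0.713, adjusted p = 0.00457). Without the shallow library both were again called, at log2 -0.90 and -0.39. Cdkn1a in Baf250a KD stayed at 522 and 463 CPM with Zn (log2 -0.030, 95% confidence interval -0.25 to 0.19).

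In Brd9 KD no member was called with Cu, where 0.274% of all genes were called either way and 4 members had an unadjusted p under 0.05, nor with Zn, where 0.0334% were called and no member had one. DESeq2 called no member in either comparison.

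Of the wider lists, the 12 genes repressed through p21 and DREAM included 9 higher and none lower with Zn in Baf250a KD, where 8.85% of all genes were higher and 7.02% lower (median log2 0.43, beside -0.003 over all genes). Plk1 rose from 59.2 and 55.1 to 88.3 and 83.6 CPM (log2 0.62, SE 0.10, edgeR adjusted p = 0.000269) and Mybl2 by a log2 fold change of 0.79, and in both the Zn libraries stayed below the scr medians of 131 and 49.6 CPM. The Mybl2 libraries with and without Zn overlapped, at means of 34.2 and 25.7 CPM. The highest Mybl2 value of Baf250a KD, 47.1 CPM, lay inside the scr range of 42.5 to 55.3. The counts were 9 and none without the shallow library and 8 and none after correction for GC content and length. Cdkn1a in the same cells did not pass the test, and the CDK inhibitor Cdkn2c rose (log2 0.90, SE 0.13, edgeR adjusted p = 4.57e-05). The damage kinase genes Atr and Atm were lower with Zn in Baf250a KD (log2 -0.69 and -0.43), where with the offset none of the 14 regulators was lower. In scr with Zn, Atr went the other way (log2 1.24, SE 0.30, edgeR adjusted p = 0.0349) and the deacetylase gene Sirt1 was higher (log2 1.14, adjusted p = 0.0275), and with the offset no regulator was called. In scr with Zn, 3 DREAM genes were higher, Ccna2 (log2 0.50) and Bub1 (1.32) among them, and none was called with the correction. With Cu in Baf180 KD 6 other p53 targets were higher and 3 lower, with Plk2 (log2 0.47) and Plk3 (0.46) the most significant, and 5 regulators were lower, with Atm (log2 -0.69) and Chek1 (-0.61) the most significant, where 5.46% of all genes were higher and 8.3% lower. With the offset 4 other targets were higher and 1 lower, and 1 regulator was lower.

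**Figure D4:**
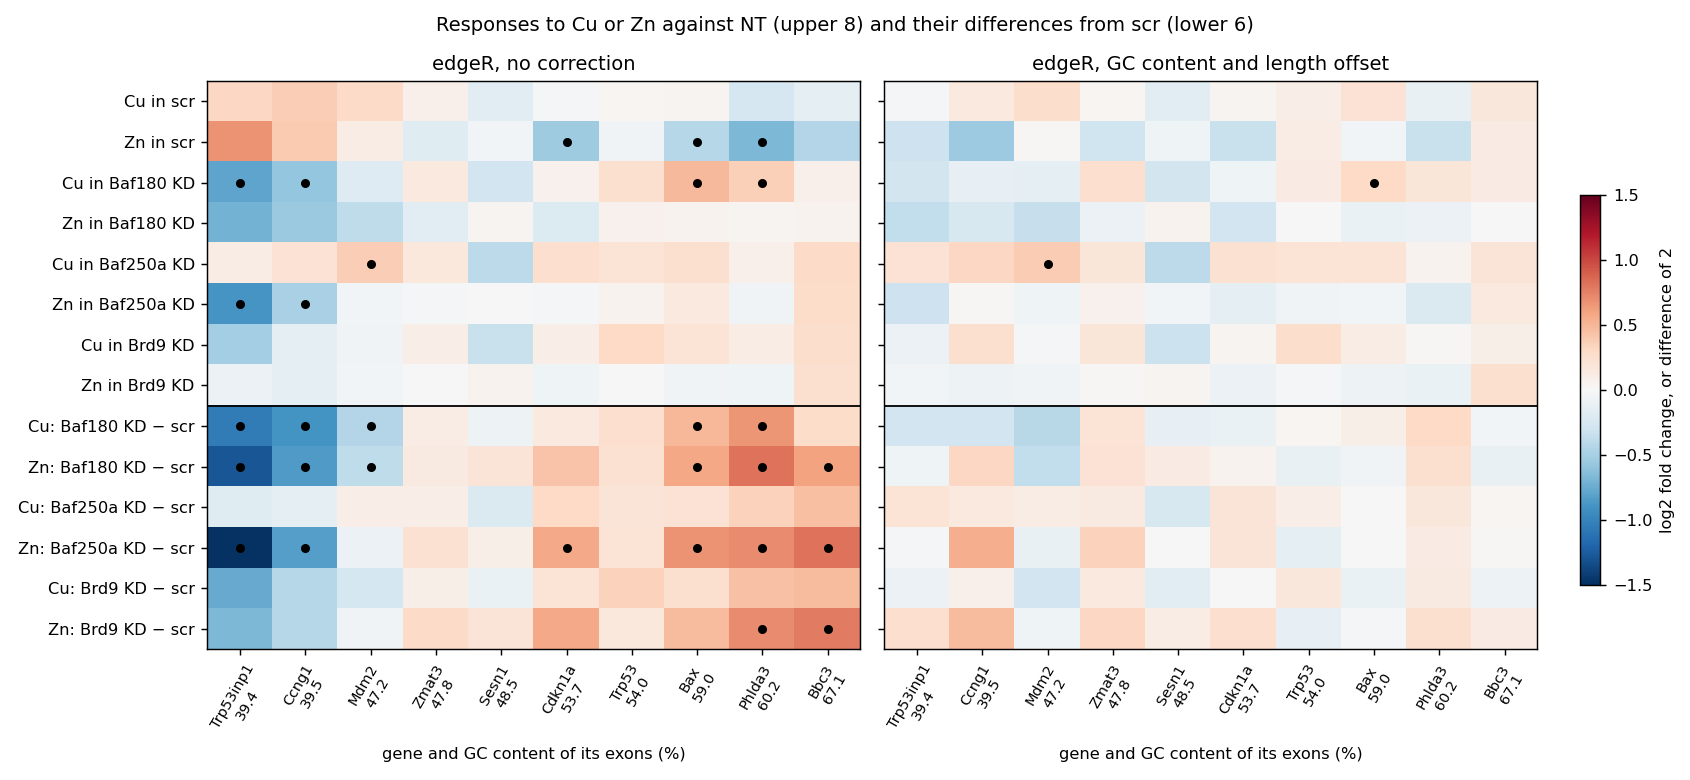
Colour map of the log2 fold changes of the 10 members (columns, ordered by the GC content of their exons in percent) with Cu or Zn in each line (upper 8 rows) and of the differences of these responses between each KD and scr (lower 6 rows), without (left) and with (right) the offset for GC content and length; red is higher, blue lower, and dots mark adjusted p under 0.05. On the left the colours grade from one end of the GC order to the other, and on the right no dot remains in the lower 6 rows.

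The metal responses moved with the GC content of the genes, which is given here beside them. The exons of Trp53inp1 and Ccng1 have GC contents of 39.42% and 39.50%, the lowest of the members, and those of Bbc3, Phlda3 and Bax have 67.06%, 60.18% and 59.01%, the highest. Over the 10 members, which are not independent replicates, the responses ranked against GC content with a Spearman coefficient of -0.79 (Cu) and -0.86 (Zn) in scr, 0.78 and 0.83 in Baf180 KD, 0.13 and 0.71 in Baf250a KD, and 0.84 and 0.44 in Brd9 KD. The coefficient over all genes was -0.47 and -0.69 in scr, 0.51 and 0.46 in Baf180 KD, 0.13 and 0.37 in Baf250a KD, and 0.41 and 0.11 in Brd9 KD. With an offset for GC content and length fitted in each library, the called members went from 3 to 0 for Zn in scr, from 4 to 1 for Cu in Baf180 KD (Bax, log2 0.30, adjusted p = 0.0387) and from 2 to 0 for Zn in Baf250a KD. Mdm2 with Cu in Baf250a KD kept its call (log2 0.38, adjusted p = 0.00949).

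For the differences between KD and scr over 3 treatments the trend over all genes was weaker, at 0.13, -0.062 and -0.093 for Baf180, Baf250a and Brd9 KD. For the untreated comparisons it was stronger, at -0.317, -0.283 and -0.434 in the same order. The values that follow are over 3 treatments. With the offset, Cdkn1a in Baf250a KD was at log2 0.78 (adjusted p = 2.39e-08), Mdm2 at -0.51, Trp53inp1 at 1.31, Sesn1 at 0.64 and Phlda3 at 1.18, all called. Cdkn1a in Baf180 KD (log2 -0.16, adjusted p = 0.0349) and Ccng1 in Brd9 KD (log2 -0.39, adjusted p = 0.0193) passed the test with the offset but not in the fit without it. So did Bax in Baf180 KD (log2 -0.16, adjusted p = 0.0122) and, both higher, Phlda3 (log2 0.17, adjusted p = 0.00862) and Sesn1 (log2 0.17, adjusted p = 0.0497) in Brd9 KD.

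The third comparison asked whether a KD changed the response to a metal, by testing the difference of the responses of the KD and scr over all 24 libraries. The 6 tests share the scr libraries. For Cu in Baf180 KD 2 members had a higher and 3 a lower response than in scr, where 5.39% of all genes were higher and 7.41% lower. For Zn in Baf180 KD these were 3 and 3, where 16.1% were higher and 12.6% lower, and for Zn in Baf250a KD 4 and 2, where 17.3% were higher and 13.2% lower. For Zn in Brd9 KD they were 2 and none, where 5.86% were higher and 5.25% lower. No member was called for Cu in Baf250a KD, where 0.0121% of all genes were called either way and 2 members had an unadjusted p under 0.05, or for Cu in Brd9 KD, where 0.0363% were called and 4 members had one.

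Cdkn1a was called in one of these tests: its Zn response was higher in Baf250a KD than in scr by 0.56 on the log2 scale in the fit of all libraries (SE 0.20, edgeR adjusted p = 0.0387). Trp53inp1 with Zn had a log2 fold change of 0.68 in scr that did not pass the test (adjusted p = 0.0543, and -0.31 with the offset) and fell in Baf250a KD, and the difference in the fit of all libraries was -1.48 (SE 0.27, edgeR adjusted p = 0.000672). Phlda3 had a higher Zn response in all 3 KDs than in scr, by 0.81, 0.71 and 0.70 in Baf180, Baf250a and Brd9 KD. Within the lines, its log2 response to Zn was 0.036, -0.047 and -0.064 in these KDs, none of them called. In scr it was -0.67. These differences followed GC content over the members with Spearman correlations of 0.84 to 0.98, and with the offset for GC content and length none of the 10 members was called in any of the 6 tests.

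The genes whose pattern over the 12 condition means was most like that of each main member are given as a description, over points that share libraries and lines. For Cdkn1a they were Sh3pxd2a, Bicd2 and Sim2 (Pearson's r of log2 CPM 0.983, 0.981 and 0.975), for Mdm2 Lrrc39, Dlgap4 and Cipc (0.936, 0.928 and 0.922), and for Trp53 Atic, Itgb7 and Rbm22 (0.957, 0.953 and 0.949). Among the members, Cdkn1a was most like Phlda3 (0.854), Zmat3 (0.791) and Trp53inp1 (0.742), and it had r of -0.168 with Mdm2 and -0.40 with Trp53.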

How the data were processed

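RNA from 24 C2C12 libraries was sequenced after rRNA had been removed with RNase H. The authors aligned reads to mm10 with STAR, kept unique reads and counted read pairs per gene by strand with featureCounts; the counts they deposited are whole numbers and not normalized. Tool versions are not given in the sources used here. The deposited DESeq2 tables hold the authors' log2 fold changes, standard errors and p-values and were not used. Samples were grouped by title, because a treatment tag in the labels contradicts the titles.

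Counts were tested in R 4.3.3 with edgeR 4.0.16 (TMM, filterByExpr, glmQLFit, glmQLFTest) across all genes that passed the filter, with Benjamini-Hochberg adjustment, a call at adjusted p under 0.05 and no minimum fold. The fits used 4 libraries for untreated comparisons, 12 for a KD against scr over 3 treatments, 6 for metal responses and 24 for differences of responses. CPM were scaled by TMM over the 24 libraries, and log2 CPM used a pseudocount of 0.5. GC content, exon length and coordinates came from GENCODE's annotation of GRCm38. The scripts were tested on simulated data. Depth differs between libraries, and a library with few counts gives less precise values.

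The members, gene lists and alternatives were chosen with earlier results of these data known. Named genes were all members, the 3 of lowest p from each list in each KD comparison over 3 treatments, up to 2 called genes of each list for each metal response, and the 3 genes most like Cdkn1a, Mdm2 and Trp53; E2f1 was named after its values were seen. The result for 1 gene that this rule names is not reported here. Alternatives were RLE size factors, all genes with at least 1 count, DESeq2 1.42.0, the replicate number as a block, an offset for GC content and length (spline with 5 degrees of freedom), all 24 libraries in the fit, and leaving out each library.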

Additional observations from a re-analysis of the deposited data

Results flagged for a closer look

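In 19 cases the response of a member to a metal differed between a KD and scr by the test of the difference itself (edgeR, adjusted p under 0.05). Each value is the log2 response in the KD minus that in scr. All share the scr libraries, and none was called with the offset for GC content and length. For Cu in Baf180 KD 5.39% of all genes had a higher and 7.41% a lower response. For Zn the shares were 16.1% and 12.6% in Baf180 KD, 17.3% and 13.2% in Baf250a KD, and 5.86% and 5.25% in Brd9 KD. A higher value need not be a rise in the KD, as no member was called higher with Zn within any line.

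With Cu in Baf180 KD the differences were -0.44 for Mdm2 (SE 0.14, adjusted p = 0.0388), -0.90 for Ccng1 (SE 0.18, adjusted p = 0.00901) and -1.05 for Trp53inp1 (SE 0.26, adjusted p = 0.015). Bax (0.50, adjusted p = 0.0386) and Phlda3 (0.66, adjusted p = 0.0115) differed in the other direction.

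With Zn in Baf180 KD, Mdm2 (-0.39, adjusted p = 0.0377), Ccng1 (-0.85, adjusted p = 0.00261) and Trp53inp1 (-1.28, adjusted p = 0.00183) had a lower response than in scr. Bbc3 (0.60, adjusted p = 0.0307), Bax (0.58, adjusted p = 0.00831) and Phlda3 (0.81, adjusted p = 0.00125) had a higher one. The Bbc3 call was kept in only 1 of 5 alternatives. It was lost with RLE size factors, with all genes of at least 1 count, in DESeq2 and with the offset.

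With Zn in Baf250a KD, Ccng1 (-0.82, adjusted p = 0.00288) and Trp53inp1 (-1.48, adjusted p = 0.000672) had a lower response. Cdkn1a (0.56, adjusted p = 0.0387), Bbc3 (0.82, adjusted p = 0.00921), Bax (0.67, adjusted p = 0.00449) and Phlda3 (0.71, adjusted p = 0.00226) had a higher one. With Zn in Brd9 KD, Bbc3 (0.78, adjusted p = 0.0297) and Phlda3 (0.70, adjusted p = 0.0246) had a higher response.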

How the results depend on the processing

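Of 61 calls of a member in a comparison, the 6 alternatives gave 347 values, of which 299 were called in the same direction, 38 were not called and 10 turned direction; leaving out 1 library gave 440 values, 323 called in the same direction, 117 not called and 0 reversed. Trp53inp1, Phlda3, Sesn1, Cdkn1a and Mdm2 in Baf250a KD over 3 treatments were called under all of these, as were Mdm2, Ccng1, Sesn1, Phlda3 and Zmat3 in Baf180 KD and Mdm2 and Zmat3 in Brd9 KD. The cause of the changes below was not tested.

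All 10 reversed values came with the GC content and length offset. Among untreated cells these were Trp53inp1 in Baf180 KD (-0.030) and Brd9 KD (-0.13), and Ccng1 (-0.15) and Bax (0.018) in Baf250a KD. Over 3 treatments it was Zmat3 in Baf250a KD (-0.047), and for Zn in Baf250a KD Ccng1 (0.013). For the difference of Zn responses from scr they were Ccng1 (0.31), Bbc3 (-0.12) and Bax (-0.048) in Baf180 KD and Ccng1 (0.54) in Baf250a KD. The same offset moved the number of called members from 3 to 6 for Brd9 KD over 3 treatments, from 3 to 0 for Zn in scr, from 4 to 1 for Cu in Baf180 KD, from 2 to 0 for Zn in Baf250a KD, and to 0 from 5 (Cu, Baf180 KD), 6 (Zn, Baf180 KD), 6 (Zn, Baf250a KD) and 2 (Zn, Brd9 KD) for the differences of responses.

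When every gene with at least 1 count was tested, 5 members were called for Brd9 KD over 3 treatments, 1 for Cu and 5 for Zn in scr, 3 for Zn in Baf180 KD, 2 for Cu in Brd9 KD, and 1 (Cu) and 4 (Zn) for the differences in Brd9 KD. Fitting all 24 libraries gave 7 for Brd9 KD over 3 treatments, 6 for Zn in scr and 0 for Cu in Baf250a KD. DESeq2 gave 3 for Zn in Baf180 KD and 0 for Cu in Baf250a KD. The labels do not say that a replicate number marks a shared batch. The deviations of same-numbered libraries correlated at 0.17, 0.349 and 0.208 in Baf180 KD, between 0.009 and 0.051 in Baf250a KD, and in both directions in scr (-0.286 to 0.358) and Brd9 KD (-0.161 to 0.322), with only 2 numbers, so the numbers were not treated as pairs. With the replicate number as a block 0 members were called for Zn in scr, 3 for Zn in Baf180 KD and 4 for the difference of Zn responses in Brd9 KD, and all genes called in Baf180 KD went from 2097 to 3892 for Cu and from 3 to 657 for Zn.

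With 1 library left out, the lone library of an arm being assumed to vary like the others, the called members ranged from 1 to 6, 4 to 9 and 0 to 7 for untreated Baf180, Baf250a and Brd9 KD, and from 5 to 6, 6 to 7 and 3 to 5 over 3 treatments. They ranged from 0 to 0 (Cu) and 0 to 5 (Zn) in scr, 0 to 4 and 0 to 0 in Baf180 KD, 0 to 0 and 1 to 2 in Baf250a KD, and 0 to 0 for both metals in Brd9 KD. For the differences they ranged from 0 to 5 (Cu) and 3 to 7 (Zn) in Baf180 KD, 0 to 0 and 2 to 6 in Baf250a KD, and 0 to 1 and 0 to 6 in Brd9 KD. Counts moved most without replicate 2 of untreated scr (0 for Zn in scr, 0 for the Cu difference and 3 for the Zn difference in Baf180 KD, 0 for the Zn difference in Brd9 KD), without replicate 1 of Cu in Baf180 KD (0 for its Cu response and its difference) and without replicate 1 of Zn in Baf250a KD (1 for its Zn response and 2 for its difference).

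Among all genes called for the difference of Zn responses in Brd9 KD, 969 of 1837 were higher with TMM and 720 of 1729 with RLE size factors. The depth of 495778 counts in 1 library limits Bbc3 and Sesn1 there.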
